A study of Homo sapiens with 27 samples.

Results

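Genes for endoplasmic reticulum (ER) chaperones and the unfolded protein response were examined in U937 cells, a human myeloid leukemia cell line with monocytic features, before and after treatment with matrine, an alkaloid of Sophora flavescens. They were taken from a list of 33 gene symbols, each of which matched 1 of the 57905 genes in the table. The list holds 9 ER chaperones and cochaperones, 2 lectin chaperones, 5 disulfide isomerases and oxidases, 3 stress sensors with the transcription factor XBP1, 9 genes of ER-associated degradation (ERAD), and 4 genes of the translocon and other membrane proteins. The mRNA levels were measured by RNA-seq in 3 groups of 3 libraries each, namely control cells and cells exposed for 30 min or for 24 h to matrine at 0.8 mg/ml. All groups were one unmodified cell line grown in medium with fetal bovine serum, and water was the vehicle control. How long the control cells were cultured is not given in the sources used here, so the effect of 24 h in culture and that of 24 h of matrine cannot be told apart. The study's methods speak of independent replicates in general, but the labels do not say whether the 3 libraries of a group came from separate cultures, so the p-values measure the spread between these libraries, which may be technical. The K562 and HL-60 libraries of the study were not analysed here.

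The 9 libraries held 17314931 to 21930018 counts. Control replicate 2 and 30 min replicate 3 each differed more from the other libraries of their group than those did from each other. Of 13 myeloid markers, 12 had a mean above 1 FPKM (fragments scaled to gene length and library size, the unit of level used throughout), and MPO, a granule enzyme of early myeloid cells, did not. No myeloid marker was at 0 throughout. The summed level of the 13 markers was 2268 to 2538 FPKM in the control libraries, 2360.5 to 2468 FPKM after 30 min and 3257 to 3427 FPKM after 24 h, and the part of this difference in the results was not tested. The 15 markers of erythroid, lymphoid, megakaryocytic, stromal and epithelial cells summed to 5.73 to 7.72 FPKM per library over all 9 libraries, with 7 of them at 0 throughout.

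The ER is where secreted and membrane proteins are folded. Polypeptides enter through the SEC61 translocon, the Hsp70-type chaperone BiP (HSPA5) and its DNAJ-type cochaperones bind them, the lectin chaperones calreticulin (CALR) and calnexin (CANX) hold glycoproteins, and protein disulfide isomerases form and rearrange disulfide bonds. Proteins that fail to fold are moved back to the cytosol and degraded by ERAD. When unfolded proteins accumulate, the membrane sensors IRE1α (ERN1), PERK (EIF2AK3) and ATF6 start the unfolded protein response. IRE1α splices the mRNA of XBP1, PERK slows translation and raises ATF4, and cleaved ATF6 enters the nucleus. Gene counts show neither splicing of XBP1 nor activation of a sensor protein, and neither was measured here.

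Many of these genes carry an ER stress response element in the promoter, the site through which ATF6 and XBP1 act together with the CCAAT-binding factor NF-Y. RefSeq promoters (GRCh38.p14, 250 bases before to 50 bases after the start) were found for 30 of the 33 genes, all but DERL1, DERL3 and PDIA3. The element ERSE, CCAAT and CCACG with 9 bases between them, was matched on either strand in 9 of these 30 genes (30.0%) and in 25 of all 27305 genes with a promoter (0.0916%). Its variant ERSE-II, ATTGG and CCACG with 1 base between them, was matched in 3 of the 30 (10.0%) and in 19 of all (0.0696%). ERSE was first described in promoters of this gene family, so these shares describe the list and are no test of it. The matched windows are shown because the genes that hold them are compared with the other members below. Each is printed on the strand where CCAAT or ATTGG is read first, with both parts of the element in capitals.
HSPA5 ERSE at chr9:125241387-125241413, minus strand: ttcaCCAATcggcggcctCCACGacgg
HSP90B1 ERSE at chr12:103930212-103930238, plus strand: ctgaCCAATcggaaggagCCACGcttc
HSP90B1 ERSE at chr12:103930317-103930343, minus strand: cccaCCAATcgcgccgcaCCACGcacc
CRELD2 ERSE at chr22:49918550-49918576, minus strand: tggcCCAATccgagttcgCCACGagag
CALR ERSE at chr19:12938380-12938406, minus strand: ccgaCCAATgatggtcgaCCACGcgtg
CANX ERSE at chr5:179698774-179698800, plus strand: ccggCCAATcttcacactCCACGaaga
PDIA6 ERSE at chr2:10812849-10812875, minus strand: cggaCCAATgagccgcagCCACGgctt
ERO1B ERSE at chr1:236282179-236282205, plus strand: gcggCCAATgaggcgggaCCACGcggg
XBP1 ERSE at chr22:28800599-28800625, minus strand: ctggCCAATcgcggagggCCACGaccg
SERP1 ERSE at chr3:150546706-150546732, plus strand: aacaCCAATtcgctgtctCCACGcatg
HYOU1 ERSE-II at chr11:119057270-119057288, plus strand: actcATTGGaCCACGtccc
HYOU1 ERSE-II at chr11:119057376-119057394, plus strand: tgggATTGGaCCACGtcac
SDF2L1 ERSE-II at chr22:21642110-21642128, minus strand: tttgATTGGtCCACGcttc
HERPUD1 ERSE-II at chr16:56932021-56932039, plus strand: gccgATTGGgCCACGttgg
The ERSE of HSPA5 lay 66 to 48 bases before the start and that of XBP1 52 to 34 bases before it. The most distant was that of ERO1B, at 243 to 225 bases before the start. CANX has several annotated starts, so its single ERSE lies at different distances from them. Among other elements, the UPRE core TGACGTGG was matched in HYOU1 only (1 of 30, against 0.927% of all genes), and the element CARE, TGATGNAAN, bound by ATF4, in HERPUD1 only (1 of 30, against 4.45% of all genes). The UPRE core of HYOU1 overlapped one of its ERSE-II windows. The E-box CACGTG was matched in HSP90B1, DNAJB9, CANX, HERPUD1 and SSR1 (16.7%, against 8.77% of all genes), and DNAJB9 held a pair of them at 73 to 68 and 49 to 44 bases before the start. A match is a run of letters and does not show binding.

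In control cells the most abundant members were folding proteins, and the sensors were among the scarce ones. CALR, the calcium-binding lectin chaperone, had the highest level at 1331 ± 58.7 FPKM (SD, n = 3), followed by P4HB, a protein disulfide isomerase, at 637 ± 15.2 FPKM, and HSPA5 at 258 ± 2.01 FPKM. HSP90B1 (GRP94, the ER form of Hsp90) followed at 183 ± 2.93 FPKM. PDIA6 at 161 ± 4.11 FPKM and CANX at 158 ± 10.6 FPKM came next and did not differ beyond their spread. The sensors EIF2AK3, ATF6 and ERN1 lay at 2.61 ± 0.136, 2.39 ± 0.240 and 2.07 ± 0.119 FPKM, close to DNAJB9 at 1.92 ± 0.353 FPKM and above ERO1B, an oxidase that recharges the disulfide isomerases, at 1.49 ± 0.202 FPKM. The libraries of ATF6 overlapped those of EIF2AK3 and of ERN1. XBP1 at 108 ± 2.85 FPKM stood far above the 3 sensors. WFS1, the ER membrane protein wolframin, had 0 counts in all 9 libraries, which allows up to 3 counts or 0.137 to 0.173 CPM in a library, and it was not tested. The other 32 members had a group mean above 1 FPKM in all 3 groups and were tested in every comparison, so none entered through 1 group alone.

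After 30 min of matrine treatment DNAJB9 and HERPUD1 rose, no member fell, and the other 30 members did not pass the test. A gene is said to rise or fall where its adjusted p (edgeR quasi-likelihood test, Benjamini-Hochberg over all genes tested) was below 0.05, and is called where the fold change was also at least 1.5. By that rule 1 of 32 members was called higher, against 0.0949% of all 11587 genes tested, and 0 lower, against 0.544%. On adjusted p alone 2 members were higher, against 0.293% of all genes, and 0 lower, against 1.33%.

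DNAJB9 (ERdj4, at chr7:108569867-108574850) encodes a cochaperone of BiP that acts in ERAD and holds IRE1α inactive. Its level was 1.69, 2.33 and 1.75 FPKM in the control libraries, 3.58, 3.41 and 2.80 after 30 min and 4.70, 4.22 and 4.61 after 24 h. All 3 libraries at 30 min lay above the controls and all 3 at 24 h above those at 30 min. The change at 30 min was a log2 fold change of 0.78 ± 0.15 (adjusted p = 0.0044), on 86 to 223 counts per library in these 6 libraries. It was below the 1.5-fold threshold with limma on log2(FPKM + 1), at 0.55, and the gene is left out where a mean above 5 FPKM is required.

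HERPUD1 (at chr16:56932142-56944864) encodes a membrane protein that assembles the ERAD ubiquitin ligase complex. Its level was 6.43, 5.86 and 6.32 FPKM in the control libraries, 8.20, 8.50 and 8.07 after 30 min and 13.7, 13.8 and 13.6 after 24 h, with no overlap between any groups. At 30 min the log2 fold change of 0.43 ± 0.07 (adjusted p = 0.0019) stayed under the fold threshold. The libraries at 30 min did not overlap the controls in 8 members, 6 of them above (HSPA5, HYOU1, DNAJB9, PDIA4, PDIA6 and HERPUD1) and 2 below (ERO1B and XBP1). Over all genes such separation was seen above the controls in 4.89% and below them in 8.91%. The median log2 fold change of the 32 members was 0.06, against −0.0043 over all genes, and the members ranged from −0.40 (ERO1B, adjusted p = 0.21 by edgeR) to 0.78.

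**Figure D1:**
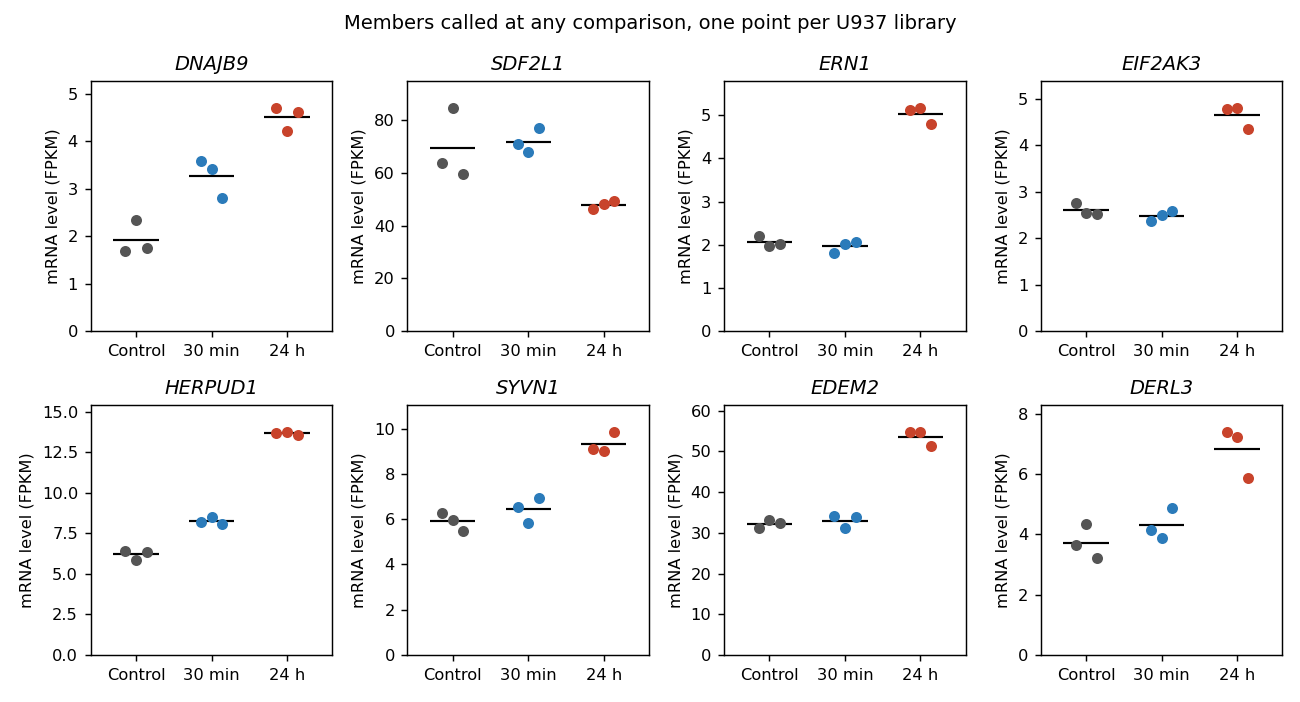
mRNA level in FPKM (vertical axes from 0, each gene on its own scale) of the 8 members called in any comparison, with 1 point per U937 library and the mean of each group as a line. DNAJB9 and HERPUD1 step up at both times, ERN1, EIF2AK3, SYVN1, EDEM2 and DERL3 stand apart at 24 h, and the 24 h libraries of SDF2L1 lie at 46.5 to 49.4 FPKM, below all other libraries.

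At 24 h the members moved in both directions. Genes of ERAD and the sensors ERN1 and EIF2AK3 rose, by up to a log2 fold change of 1.23, while the abundant chaperones and disulfide isomerases fell by smaller amounts. HSPA5 and XBP1 did not pass the test. In bulk RNA such differences can come from the share of cells in a state or from the level per cell, which cannot be told apart. Of 32 members, 7 were called higher (21.9%), against 15.1% of all 12035 genes tested, and 0 lower, against 11.2%. On adjusted p alone 13 members rose (40.6%), against 31.5% of all genes, and 10 fell (31.2%), against 31.8%. The median log2 fold change of the members was 0.10, against 0.0082 over all genes. Over the other scalings, tools, filters and left-out libraries, 11 to 15 members rose and 9 to 12 fell on adjusted p alone. Of the 13 myeloid markers, 6 were called higher and 0 lower in the same comparison, and on adjusted p alone 9 rose and 3 fell. MPO passed the filter only through its 24 h level, and without it 5 of 12 were called higher, 8 rose and 3 fell.

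Of the sensors, ERN1 (IRE1α, at chr17:64039080-64130819), a kinase and endoribonuclease, changed most. Its level was 2.20, 1.97 and 2.03 FPKM in the control libraries, 1.82, 2.03 and 2.06 after 30 min and 5.13, 5.17 and 4.79 after 24 h. The control and 30 min libraries overlapped and the 24 h libraries stood apart from both. Against control the log2 fold change was 1.23 ± 0.08 (adjusted p = 2.3e-11), and ERN1 was called in every alternative that kept it. EIF2AK3 (PERK, at chr2:88556741-88691518), the kinase that phosphorylates eIF2α, followed the same order, with 2.77, 2.54 and 2.53 FPKM in the control libraries, 2.37, 2.50 and 2.59 after 30 min and 4.79, 4.81 and 4.36 after 24 h. Its log2 fold change was 0.78 ± 0.09 (adjusted p = 1.8e-07), with no overlap between the 24 h libraries and the others.

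ATF6, whose cleaved form is a transcription factor, had 2.33, 2.18 and 2.65 FPKM in the control libraries, 2.55, 2.68 and 2.75 after 30 min and 2.75, 2.62 and 2.73 after 24 h. These libraries overlapped between groups, and the log2 fold change of 0.13 ± 0.09 (adjusted p = 0.2) did not pass the test. XBP1, the target of IRE1α, had 106, 111 and 106 FPKM in the control libraries, 101, 105 and 101 after 30 min and 104, 109.5 and 112 after 24 h. The log2 fold change of −0.04 ± 0.05 (adjusted p = 0.5) did not pass either, and its sign was positive when libraries were scaled by their totals alone. Thus 2 of these 4 genes rose and 0 fell, against 31.5% and 31.8% of all genes.

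Of the 9 ERAD members, 8 rose on adjusted p alone and 1 fell, against 31.5% and 31.8% of all genes, and 4 were called higher, against 15.1%. Of 18 further ERAD genes that are not members, 6 rose, 4 fell and 1 was called higher. HERPUD1 had the largest change, a log2 fold change of 1.09 ± 0.07 (adjusted p = 3.5e-11). EDEM2 (at chr20:35115364-35147336), which starts mannose trimming of glycoproteins sent to degradation, was 31.1, 33.1 and 32.3 FPKM in the control libraries, 34.0, 31.1 and 33.9 after 30 min and 54.9, 54.7 and 51.4 after 24 h. Only the 24 h libraries stood apart, and the log2 fold change was 0.69 ± 0.06 (adjusted p = 2.9e-09). SYVN1 (HRD1, at chr11:65121780-65134532), the ubiquitin ligase at the center of the complex, was 6.26, 5.98 and 5.49 FPKM in the control libraries, 6.55, 5.83 and 6.94 after 30 min and 9.12, 9.01 and 9.88 after 24 h. Its log2 fold change of 0.61 ± 0.08 (adjusted p = 1.8e-06) was just over the fold threshold of 0.585. SYVN1 fell under this threshold without control replicate 3 (0.56) or without 24 h replicate 3 (0.55). It also did so with no filter on low expression (0.54) and with limma on log2(FPKM + 1) (0.582).

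DERL3 (at chr22:23834503-23839128), a derlin of the ERAD channel, was 3.64, 4.34 and 3.20 FPKM in the control libraries, 4.13, 3.88 and 4.89 after 30 min and 7.41, 7.22 and 5.88 after 24 h. The 24 h libraries lay above all others, with 24 h replicate 3 lowest among them, and the log2 fold change was 0.82 ± 0.12 (adjusted p = 4.7e-06). Exons of DERL3 overlap those of SMARCB1 on the opposite strand over 2923 bases, 77.0% of its exonic bases in GENCODE 44. SMARCB1 lay at 42.7 FPKM on average over the 9 libraries with a log2 fold change of −0.14 at 24 h, and as the strand setting of the counting is not given, reads of the pair may not have been told apart. SYVN1 overlaps MRPL49 and FAU over 6.48% and 2.37% of its exonic bases, both with negative log2 fold changes at 24 h (−0.09 and −0.39), while no overlapping exon was annotated for HERPUD1, EDEM2, ERN1, DNAJB9 or SDF2L1.

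The remaining ERAD genes rose by less than 1.5-fold, apart from EDEM3. DERL2 went from 3.65 ± 0.161 to 5.24 ± 0.0889 FPKM (log2 fold change 0.48 ± 0.09, adjusted p = 6.4e-05). The mannosidase-like EDEM1 had a log2 fold change of 0.27 ± 0.06, DERL1 of 0.20 ± 0.07, and SEL1L, the partner of SYVN1, of 0.19 ± 0.07. DERL1 no longer passed without control replicate 2 or 24 h replicate 3 (values over left-out libraries 0.16 to 0.22), nor SEL1L without control replicate 2, 24 h replicate 1 or 24 h replicate 2 (0.12 to 0.24). With no filter on low expression DERL1 and SEL1L did not pass either. EDEM3, a mannosidase of the same family as EDEM1 and EDEM2, went the other way, from 31.8 ± 3.75 to 24.0 ± 1.78 FPKM (log2 fold change −0.45 ± 0.08, adjusted p = 2.4e-05).

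Among the 9 chaperones and cochaperones, 3 rose and 3 fell at 24 h, close to the 31.5% and 31.8% of all genes. DNAJB9 rose by 1.18 ± 0.14 on the log2 scale (adjusted p = 3.2e-07, edgeR). DNAJC3 (p58IPK), a cochaperone and inhibitor of eIF2α kinases, rose by 0.36 ± 0.07 and CRELD2, a secreted ER stress protein, by 0.26 ± 0.09. The libraries of CRELD2 overlapped the controls, and it no longer passed without control replicate 1, control replicate 3, 24 h replicate 1 or 24 h replicate 3 (0.17 to 0.40 over left-out libraries). HSPA5, the master chaperone, was 258, 260.4 and 256 FPKM in the control libraries, 280.0, 285 and 263 after 30 min and 252, 254 and 252 after 24 h. The 24 h libraries lay just below the controls, but the log2 fold change of −0.08 ± 0.05 (adjusted p = 0.16) did not pass the test. HSPA5 passed as lower on adjusted p alone only with no filter on low expression. HSP90B1 fell by 0.32 ± 0.06 on the log2 scale, from 183 ± 2.93 to 151 ± 0.965 FPKM, and HYOU1 (GRP170, an exchange factor of BiP) fell by 0.19 ± 0.05.

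SDF2L1 (at chr22:21642302-21644299), which works with DNAJB11 in the BiP cycle, fell most of all members. Its level was 63.7, 84.7 and 59.8 FPKM in the control libraries, 70.8, 67.8 and 77.0 after 30 min and 46.5, 48.1 and 49.4 after 24 h. The controls were spread widely, with control replicate 2 the highest of all 9 libraries. The log2 fold change of −0.58 ± 0.10 (adjusted p = 3.6e-05) was just short of the fold threshold, and SDF2L1 was called lower with the DESeq2 size factors (−0.59), with no filter on low expression (−0.65), and without control replicate 1 (−0.65), control replicate 3 (−0.68) or 24 h replicate 3 (−0.62). DNAJB11 (0.12 ± 0.06) and the secreted ER protein MANF (0.14 ± 0.06) did not pass the test. Both passed as higher on adjusted p alone with library totals alone, either limma fit, a mean above 5 FPKM or the 6 libraries alone. MANF also passed without control replicate 2.

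Of the 7 lectin chaperones and disulfide enzymes, 6 fell on adjusted p alone, against 31.8% of all genes. In these roles 0 were called lower, against 11.2%. The 6 that fell lay above 100 FPKM, a range where 64.6% of all 443 genes fell. CALR was 1312, 1397 and 1285 FPKM in the control libraries, 1386, 1348 and 1406 after 30 min and 1029, 1027 and 1058 after 24 h. All 24 h libraries lay below the other 6, and the log2 fold change was −0.41 ± 0.05 (adjusted p = 3.8e-07). CANX fell by 0.30 ± 0.06 on the log2 scale, from 158 ± 10.6 to 133 ± 2.27 FPKM. Of the isomerases, PDIA4 fell by 0.34 ± 0.05, PDIA6 by 0.30 ± 0.05, and PDIA3, the partner of both lectins, by 0.23 ± 0.05 on the log2 scale. P4HB fell by 0.11 ± 0.05 (adjusted p = 0.049, edgeR), with libraries that overlapped the controls, and no longer passed when libraries were scaled by their totals alone, with either limma fit, with a mean above 5 FPKM, or without any 1 of the 3 controls or of 24 h replicates 1 and 2 (−0.16 to −0.10 over left-out libraries). ERO1B (0.08 ± 0.13) did not pass. The translocon subunit SEC61B (−0.02 ± 0.07), SSR1 of the translocon-associated complex (−0.13 ± 0.06) and SERP1, a stabilizer of membrane proteins at the translocon (0.02 ± 0.06), did not pass either. SSR1 passed as lower on adjusted p alone with no filter, with the 6 libraries alone and without control replicate 2.

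**Figure D2:**
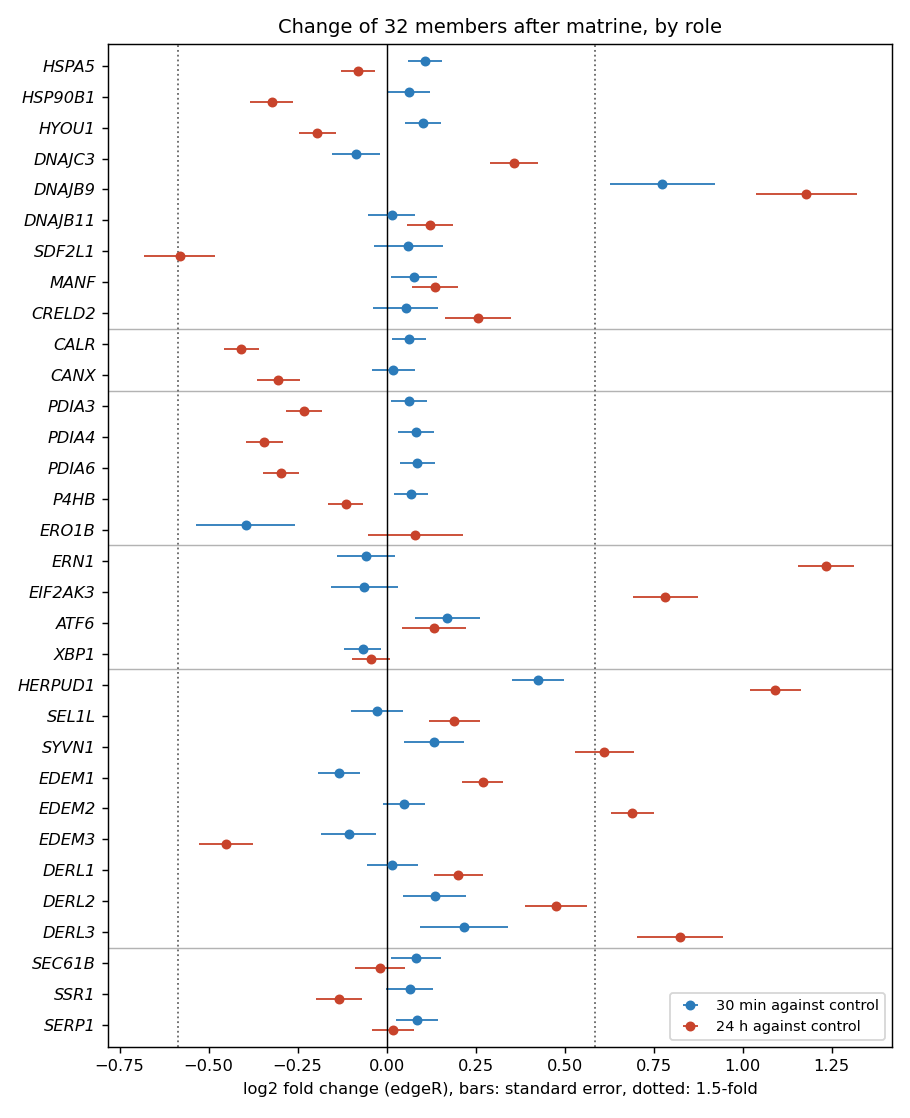
log2 fold change with its standard error (edgeR) of the 32 tested members at 30 min (blue) and 24 h (red) against the same controls, grouped by role from chaperones at the top to the translocon at the bottom. At 30 min only DNAJB9 passes the dotted 1.5-fold line, and at 24 h most ERAD genes lie to the right and the lectin chaperones and isomerases to the left of 0.

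The libraries at 24 h did not overlap the controls in 25 members, 14 above and 11 below, against 38.7% and 31.0% of all genes. With 3 libraries against 3, an exact permutation test of a single gene gives no two-sided p below 0.1, so no such test is given for single members.

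The direct comparison of 24 h with 30 min tests whether the 2 effects differ, since both were measured against the same controls. By this comparison 5 of 32 members were called higher (15.6%), against 15.4% of all 11981 genes, and 1 lower (3.1%), against 11.5%. The share of members called higher was thus near that of all genes. The 5 were ERN1 (1.27 ± 0.08), EIF2AK3 (0.83 ± 0.09), HERPUD1 (0.65 ± 0.07), EDEM2 (0.62 ± 0.06) and DERL3 (0.59 ± 0.12), and the 1 that was lower was SDF2L1 (−0.66 ± 0.10). On adjusted p alone 13 were higher, against 32.5% of all genes, and 12 lower, against 32.6%. DNAJB9 was higher at 24 h than at 30 min by 0.39 ± 0.13 on the log2 scale (adjusted p = 0.014, edgeR), under the fold threshold. HSPA5 was lower at 24 h than at 30 min, with a log2 difference of −0.21 ± 0.05 (adjusted p = 0.00084, edgeR), although neither time passed the test against control. The 24 h libraries did not overlap those at 30 min in 16 members above and 11 below, against 39.9% and 28.6% of all genes. Without 30 min replicate 2 the count of higher members was 3, since EDEM2 and DERL3 fell under the fold threshold.

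In sums of FPKM the folding genes went down and the ERAD genes up at 24 h. The 16 chaperones, lectin chaperones and disulfide enzymes summed to 3189.7, 3317 and 3148 FPKM in the control libraries, 3362, 3328 and 3345 at 30 min and 2761, 2732 and 2802 at 24 h. The 24 h mean was 85.9% of the control mean, and all 24 h libraries lay below the other 6. CALR carried a large share of this sum, and without it the other 15 genes were at 91.5% of control. The 9 ERAD genes summed to 129.9, 122 and 133 FPKM in the control libraries, 126, 132 and 126 at 30 min and 171, 169.9 and 161 at 24 h. Their 24 h mean was 130.3% of control, and the 24 h libraries lay above the other 6. A large part of this gain came from EDEM2, whose mean went from 32.2 to 53.6 FPKM, while the mean of the sum went from 128 to 167 FPKM.

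**Figure D3:**
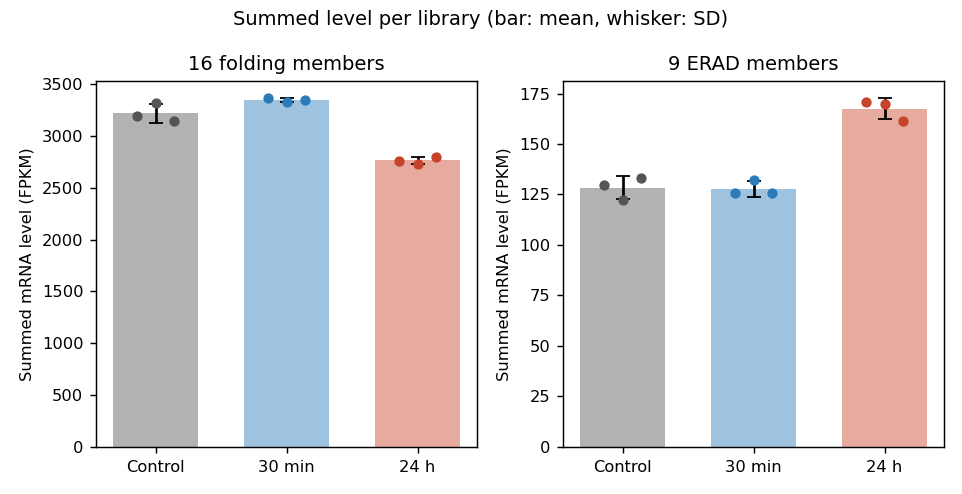
Summed mRNA level (FPKM, axes from 0) of the 16 folding genes (left) and the 9 ERAD genes (right), with 1 point per library, the mean as a bar and the SD over 3 libraries as a whisker. The 24 h libraries lie at 2732 to 2802 FPKM on the left, below all others, and at 161 to 171 FPKM on the right, above all others.

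At 24 h members at low levels mostly rose and those at high levels mostly fell. Over the 32 members, the mean FPKM at 30 min and the log2 fold change at 24 h against control had a Pearson r of −0.72 on log2(FPKM + 0.1) and a Spearman rho of −0.77. Over all 12035 genes tested the values were −0.34 and −0.35. These axes share no library, the genes share their libraries, and the correlations are given as a description. Of the 9 members at 100 FPKM or more, 0 rose and 7 fell, where 14.2% of all 443 genes in that range rose and 64.6% fell. Of the 14 members under 20 FPKM, 11 rose and 0 fell, where 34.6% of all 9427 such genes rose and 25.0% fell. Between these limits 2 of 9 members rose and 3 fell, against 21.5% and 54.4% of 2165 genes.

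**Figure D4:**
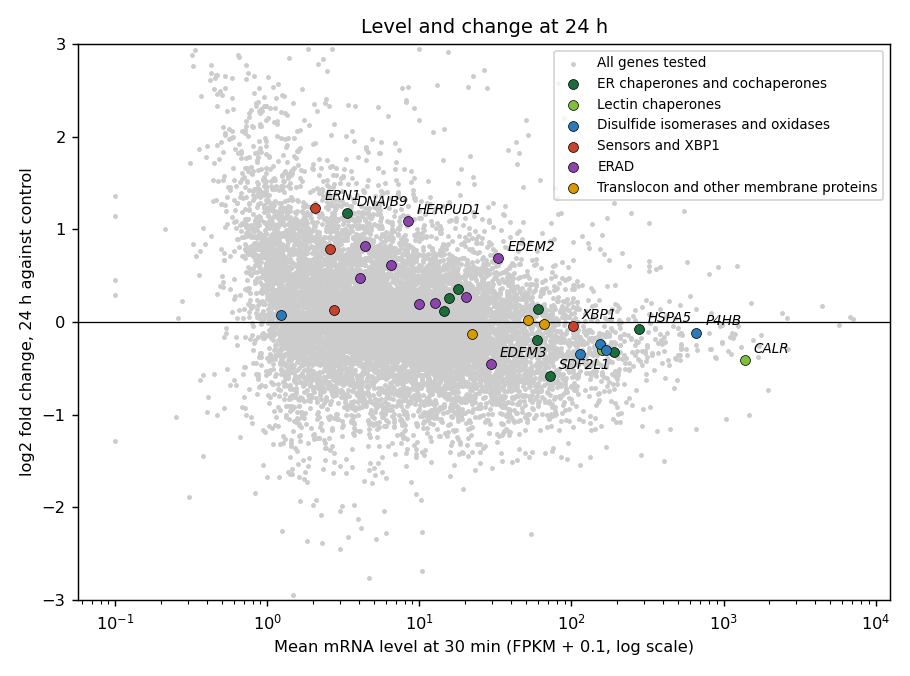
Mean mRNA level at 30 min (FPKM + 0.1, log axis) against the log2 fold change at 24 h (edgeR, against control) for all genes tested (gray) and the 32 members (colored by role), with 37 genes beyond ±3 not drawn. Members at low levels such as ERN1, DNAJB9 and HERPUD1 lie above 0, and those at high levels such as CALR lie below 0.

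Of the 9 members with an exact ERSE, 0 were called higher at 24 h, against 15.1% of all genes, 1 rose (CRELD2, which did not pass without some of the libraries) and 4 fell (HSP90B1, CALR, CANX and PDIA6), and their median log2 fold change was −0.08. Of the 20 tested members with a promoter and no exact ERSE, 6 were called higher, 10 rose and 5 fell, with a median of 0.16. Over all genes 31.5% rose and 31.8% fell. The 4 genes with an ERSE that fell lay above 100 FPKM, a range where 64.6% of all 443 genes fell. HERPUD1 and SYVN1, both called, match ERSE when 1 mismatch is allowed. The 3 members with ERSE-II went different ways, HERPUD1 up by 1.09 ± 0.07, HYOU1 down with −0.19 ± 0.05 and SDF2L1 down with −0.58 ± 0.10. In control cells the 9 genes with an ERSE ran from ERO1B at 1.49 FPKM to CALR at 1331 FPKM, and the part of the level in this difference was not tested.

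Other genes of the same pathway, 95 in 7 lists, also moved both ways at 24 h. Of the 94 tested, 9 were called higher (9.57%, against 15.1% of all genes) and 2 lower (against 11.2%). On adjusted p alone 35 rose and 24 fell, against 31.5% and 31.8%, and their median log2 fold change was 0.08. The count called lower was 1 without control replicate 1, 3 without control replicate 2 and 4 without 24 h replicate 3. Among further chaperones, 1 of 14 was called higher, DNAJC1 (0.67 ± 0.08), a membrane-bound cochaperone of BiP. Among thiol oxidoreductases, 1 of 14 was called lower, TXNDC5, a disulfide isomerase with 11.8, 15.5 and 13.5 FPKM in control libraries, 8.56, 9.92 and 9.97 at 30 min and 5.93, 6.64 and 7.03 at 24 h (−1.10 ± 0.10). It also fell at 30 min, by less than 1.5-fold (log2 fold change −0.51 ± 0.09, adjusted p = 0.004). Among 15 glycoprotein folding genes, 1 was called lower, STT3B (−0.59 ± 0.05), a catalytic subunit of oligosaccharyltransferase. None of the 16 translocation and signal peptide genes was called, at a median of 0.0062. The 1 called gene of the 18 further ERAD genes was FAM8A1 (0.62 ± 0.15), a component of the HRD1 complex.

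Of 10 regulators of the response, 6 rose, 1 fell (TRAF2, −0.44 ± 0.09, chosen for naming with its value known) and 3 did not pass. In this list 2 were called higher, BLOC1S1 (0.64 ± 0.12), whose mRNA IRE1α is known to cleave, and CREB3 (0.61 ± 0.11), an ER-bound transcription factor chosen for naming with its value known. All 7 tested genes of the PERK-ATF4 arm rose at 24 h and 5 were called, or 6 of 6 and 4 without ATF3, against 31.5% and 15.1% of all genes. DDIT3 (CHOP), the transcription factor tied to cell death under ER stress, had 5.96, 6.40 and 6.23 FPKM in the control libraries, 7.12, 8.26 and 8.78 after 30 min and 31.6, 35.7 and 32.3 after 24 h, a log2 fold change of 2.37 ± 0.10 (adjusted p = 5.1e-14). ATF4 had 149, 150.1 and 154 FPKM in the control libraries, 172, 163 and 178 after 30 min and 198, 208 and 208 after 24 h, and its 0.39 ± 0.05 stayed under the fold threshold, as did PPP1R15A (GADD34), the phosphatase subunit that reverses PERK signaling, at 0.52 ± 0.06. The other called genes, chosen for naming with their values known, were SESN2 (1.84 ± 0.09), ATF3 (1.46 ± 0.18), ASNS (1.00 ± 0.10) and TRIB3 (0.99 ± 0.06). ATF3 passed the filter on low expression only through its 24 h level (2.46 ± 0.223 FPKM), and CHAC1 was not tested. At 30 min, 0 of the 93 other genes tested were called in either direction by edgeR, and 1 was called lower without control replicate 1.

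**Figure D5:**
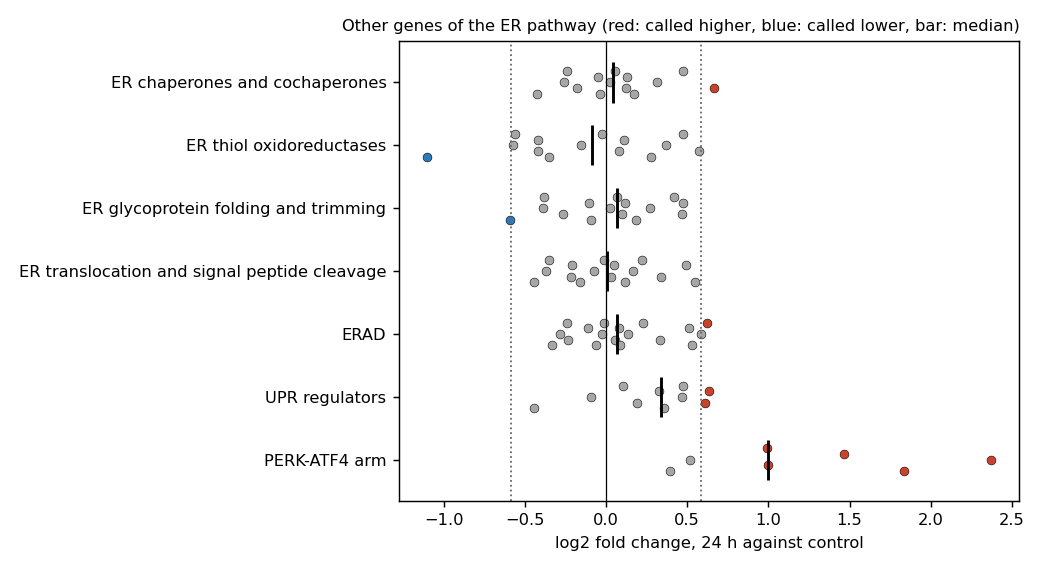
log2 fold change at 24 h against control (edgeR) of the 94 tested genes of 7 further ER lists, with 1 point per gene, red where called higher, blue where called lower and gray otherwise, the median of each list as a bar and the 1.5-fold limits dotted. Medians lie between −0.09 and 0.34 in 6 lists and at 1.00 in the PERK-ATF4 arm.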

How the data were processed

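RNA-seq of 9 U937 libraries (control, 30 min and 24 h of 0.8 mg/ml matrine, 3 each) was used. Per the labels, total RNA was made into libraries with a VAHTS mRNA-seq kit. The study's text names both poly(A) selection and removal of rRNA. The submitters' processing notes list cutadapt 1.9.1, HISAT2 2.0.1 and HTSeq 0.6.1 and the build GRCh37, whereas the study's methods name hg38. The table has no coordinates, so the positions printed are those of GENCODE 44 or RefSeq on GRCh38. Which annotation, strand setting and rule for multiply mapped reads were used is not given in the sources used here, which limits overlapping genes. The authors deposited the raw count of each gene, which was tested here, and the FPKM computed by the authors, which was used for levels and for the filter. The authors tested counts with DESeq2.

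A symbol was found for 51996 of the 57905 genes. Genes with a mean above 1 FPKM over the 6 libraries of a comparison were tested with edgeR 4.0.16 in R 4.3.3 (TMM, quasi-likelihood, all 9 libraries in 1 fit), with Benjamini-Hochberg adjustment over all genes tested. Calls needed an adjusted p under 0.05 together with a change of 1.5-fold or more. The fit was tested on simulated data. Both treated groups share the controls. The alternatives were DESeq2 1.42.0 and its size factors, library totals alone, limma 3.58.1 on log2(FPKM + 0.1) and log2(FPKM + 1), no filter, a mean above 5 FPKM, a fold change of 2 or none, a replicate block, the 6 libraries alone, each library left out, and 1 mismatch in ERSE. Values after ± are the SD over 3 libraries for levels and the standard error for log2 fold changes. The floor given for WFS1 covers counting error only.

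All 33 members were named, with values per library for those called and for the sensors and XBP1. Of the other lists, the called gene with the largest change in each direction at 24 h, any called at 30 min, and DDIT3, ATF4 and PPP1R15A were named. HSPA5 and CALR were given per library in addition, a choice made with their values known. The members, lists and tests were chosen with earlier results of these data known. The C-terminal retrieval signals of the proteins were not analysed here.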

Additional observations from a re-analysis of the deposited data

Results flagged for a closer look

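For 6 members the effect at 24 h and the effect at 30 min differed in the direct comparison of the 2 times (edgeR, adjusted p below 0.05 and at least 1.5-fold). The difference, 24 h minus 30 min on the log2 scale, was 1.27 for ERN1, 0.83 for EIF2AK3, 0.65 for HERPUD1, 0.62 for EDEM2, 0.59 for DERL3 and −0.66 for SDF2L1. In each, every 24 h library lay outside the range of the 30 min libraries. The 6 were chosen by this comparison, so the separation adds no support to it. Such separation was seen above the 30 min libraries in 39.9% of all genes and below them in 28.6%. Of the 32 members tested, 15.6% were called higher and 3.1% lower in this comparison, against 15.4% and 11.5% of all genes tested. The share called higher was thus near that of all genes. The value of DERL3 lay next to the 1.5-fold limit of 0.58, and its call was lost without 30 min replicate 1 (0.56), 30 min replicate 2 (0.51), 24 h replicate 1 (0.53) or 24 h replicate 2 (0.55), with DESeq2 or its size factors (0.58 in both), with limma on log2(FPKM + 1) (0.56) and with no filter (0.53), while EDEM2 lost its call without 30 min replicate 2 (0.57) and with no filter (0.56).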

How the results depend on the processing

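Of 704 alternative values for single members, 636 kept direction and call, 30 lost the call, 25 gained it and 13 changed sign. Most losses and gains were moves across the fold threshold. With a fold change of 2 the members called higher, of 32 tested, were 0 at 30 min, 3 at 24 h and 1 at 24 h against 30 min, with 0 lower in the last. Over all genes 1 of 11587, 765 of 12035 and 777 of 11981 were then higher, and 345 lower in the last. With adjusted p alone 2, 13 and 13 members were higher, against 0.293%, 31.5% and 32.5% of all genes. In the last 2 comparisons 10 and 12 were lower, against 31.8% and 32.6%. A mean above 5 FPKM leaves out the sensors and DNAJB9 among others. With it 0 of 25, 4 of 26 and 3 of 26 members were called higher, and 0 lower at 24 h against 30 min. Over all genes 7 of 7010, 869 of 7273 and 913 of 7195 were then higher, and 787 lower in the last. With limma on log2(FPKM + 1) 0 members and 7 of 11587 genes were called higher at 30 min. With no filter 3 members and 2754 of 28848 genes were called higher at 24 h against 30 min. SYVN1 lost its call at 24 h against control with no filter and with limma on log2(FPKM + 1). SDF2L1 was the 1 member called lower at 24 h against control with no filter, with DESeq2 and with its size factors, and the 1 member lost (0 lower) at 24 h against 30 min with library totals alone and with either limma fit. Leaving out 1 library gave 0 to 1 lower at 24 h, with 1 without control replicate 1, control replicate 3 or 24 h replicate 3. The members called higher at 24 h were then 6 to 7, with 6 without control replicate 3 or 24 h replicate 3. Over all genes 1714 to 1814 of 12035 were higher. At 24 h against 30 min 3 to 5 members were higher, with 3 without 30 min replicate 2. Signs changed only in members near 0 that did not pass the test. XBP1 was 0.012 with a mean above 5 FPKM, 0.0052 with library totals alone, and 0.0049 and 0.0048 with limma. SEC61B was 0.036, 0.029, 0.032 and 0.031 in the same order, and −0.071 to 0.024 over left-out libraries. SERP1 was −0.049 with no filter and −0.031 to 0.044 over left-out libraries, and ERO1B −0.030 to 0.20. Allowing 1 mismatch in ERSE raised its share to 53.3% of members and 1.89% of all genes.

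Over all genes, the numbers called higher and lower at 30 min were 11 and 63, against 28 and 95 with no filter, 7 and 42 with a mean above 5 FPKM, 1 and 23 with a fold change of 2, 34 and 154 with none and 7 and 52 with limma on log2(FPKM + 1), and 18 were higher without 30 min replicate 2. At 24 h they were 1820 and 1344, against 869 and 808, 765 and 355 and 3794 and 3824 with a mean above 5 FPKM, a fold change of 2 and none. At 24 h against 30 min they were 1844 and 1379, against 913 and 787, 777 and 345 and 3894 and 3903 in the same order, and 1591 and 820 with limma on log2(FPKM + 1). In that comparison 42.8% of the called genes were lower, against 32.6% with library totals alone. No scaling moved the median of all genes by more than 0.1 on the log2 scale. No pairing of the libraries by replicate number was seen in their deviations from the group means, which does not exclude that they were handled in pairs. The deviations of same-numbered libraries had r from −0.16 to 0.10 over 9 pairs, and not every library correlated best with its own number. A replicate block left 1 member called higher at 30 min, 7 at 24 h, and 4 rather than 5 at 24 h against 30 min. In the last DERL3 was lost (0.58), and no other call changed. On adjusted p alone P4HB no longer passed at 24 h, nor DERL1 at 24 h against 30 min. DERL3 also lost its call at 24 h against 30 min with DESeq2 and with its size factors. The spread over 3 libraries limits what can be seen of small changes, and WFS1 could not be seen at this depth.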

Other observations

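In all, 25 genes held an exact ERSE in the promoter window, 9 of them members. Of the other 16, only 5 were expressed enough to be tested at 24 h. TMEM120A (log2 fold change 0.80) and TRIM5 (0.85), the latter an antiviral restriction factor, were called higher by edgeR, while ZNF17 (−0.23) and the neighbors of 2 members, ALG12 beside CRELD2 (0.19) and EIF2A beside SERP1 (−0.43), were not called. EIF2A fell by less than 1.5-fold (adjusted p = 1e-05, edgeR), and ZNF17 and ALG12 did not pass the test. Of 16 other genes with ERSE-II, 9 were tested and 3 called, namely NAV2 (1.24) and RAD9A (0.59) higher and RUVBL2 (−0.98), an ATPase of chromatin remodeling complexes, lower. On adjusted p alone 3 of the 9 rose and 4 fell, against 31.5% and 31.8% of all genes. Over all genes 15.1% were called higher and 11.2% lower. The genes of this paragraph were picked with their values known.

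The gene CHAC1, a glutathione-degrading enzyme of the ATF4 arm, was below the filter, with 0.470, 0.380 and 0.230 FPKM in the control libraries, 0.290, 0.450 and 0.430 at 30 min and 0.71, 0.60 and 0.58 at 24 h. The 24 h libraries lay above the others, and no test was made.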
